A study of Homo sapiens with 6 samples.

Results

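The genes EGR1, EGR2, EGR3, NR4A1, NR4A2, NR4A3, IER2, IER3, IER5 and ARC are immediate early genes, taken by name from their families and followed here in U251 cells with and without sevoflurane (Sev). All 10 were found by their Ensembl identifiers among the 61496 features of the deposited count table, and all 10 passed the expression filter. U251 is an established human glioma cell line, grown in DMEM with fetal bovine serum, and Sev is a volatile anesthetic. The 3 control libraries came from untreated cells and the 3 Sev libraries from cells exposed to Sev gas for 2 h. The sequenced comparison is described as one of cells under 5.1% Sev, the highest of the concentrations used, although the label of each library names no concentration. No gene was altered in either group. The labels do not say whether the libraries of a group came from separate cultures, so p-values measure the spread between these libraries, which may be technical. Total RNA was depleted of ribosomal RNA and sequenced with strand-specific adapters in paired-end reads.

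Immediate early genes are transcribed within minutes of a stimulus from factors already present in the cell, and their mRNAs are short-lived. Growth factors, calcium and cAMP reach them through the ERK and protein kinase A pathways, which act on serum response factor with its ETS-family partners and on CREB. The EGR proteins are zinc finger transcription factors that bind GC-rich DNA, the NR4A proteins are nuclear receptors that act without a known physiological ligand and are controlled by their amount, and the IER proteins are small regulators of transcription, survival and stress responses. ARC, a cytoskeleton-associated protein best known from neurons, is induced by synaptic activity. In glioma cells kept in serum, basal expression of several of these genes is common.

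The libraries held between 38624292 and 46318311 counts, and the mitochondrial share was 1.13% to 1.76%. Principal component 1 of the normalized levels, with 69.0% of the variance, separated the groups. Component 2, with 10.0%, placed Sev replicate 2 at 61.5 and Sev replicate 3 at −52.4, while Sev replicate 1 was at −9.25 and the controls were between −5.24 and 6.47. The U251 label was checked against 10 glial and glioma markers, whose summed level was 7954 to 8887 CPM (counts scaled to a common TMM-normalized library size) in the control libraries and 8999 to 9517 CPM in the Sev libraries. VIM, an intermediate filament gene, stood at 5485 ± 536 CPM (SD, n = 3) in control cells and GFAP, the astrocyte filament gene, at 269.9 ± 91.4 CPM, whereas AQP4 had 0 to 17 counts in a library. Of the 9 glial markers tested, CD44 was higher and SOX2 and S100B were lower in Sev. The part of these shifts in the member values was not tested. A list of 20 markers of other cell types summed to 60.8 to 65.8 CPM in control and 81.6 to 82.8 CPM in Sev libraries, and 5 of its 14 tested genes were higher. These were the monocyte gene CD14, from 1.34 ± 0.0549 to 4.97 ± 1.04 CPM, the epithelial keratin gene KRT18, from 20.9 ± 0.862 to 29.4 ± 2.25 CPM, the myelin gene MBP, from 2.52 ± 0.199 to 5.06 ± 1.12 CPM, and PECAM1 and PDGFRB. Markers of the same cell types differed in level: the macrophage gene AIF1 was at 0 in all 6 libraries and the leukocyte gene PTPRC had 0 to 12 counts, while CD68 had 88 to 198, and the epithelial gene EPCAM had 0 to 5 counts, while KRT8 had 193 to 342.

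Promoters were looked at first, since the elements that serum response factor and CREB bind are the best known inputs to immediate early genes. RefSeq promoter windows (GRCh38.p14, 250 bases before to 50 after a start) were at hand for 6 of the 10 members, in 9 windows, and were searched on both strands. The CArG box, the site of serum response factor, was present in 1.29% of all 35116 windows, and 0.0313% held 2 or more. The EGR1 window held 2 and the window of the third EGR2 start held 1. The core TGACG of the cAMP response element was present in 24.6% of all windows, with 4 or more in 0.313%. NR4A3 held 4, EGR1 and the third EGR2 start held 2 each, and IER2 held 1. The EGR site GCGNGGGCG, in 9.43% of all windows, was matched in EGR1 and in the second EGR2 start. The 2 NR4A1 windows, the IER5 window and the window of the first EGR2 start held none of the 6 motifs searched, and the full element TGACGTCA, the TATAAA motif and the NR4A site AAAGGTCA were in none of the 9 windows, against 1.85%, 11.5% and 1.22% of all windows. Only exact matches were counted, and other starts of these genes and sequence outside the windows were not searched.

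The 250 bases before the start are shown for the 3 windows with the most matches, 5′ to 3′ on the strand of the gene. Capitals mark CArG boxes, which are 10 bases long, and the core TGACG or its reverse complement CGTCA. The windows are chr5:138465229-138465478 on the plus strand for EGR1, chr10:62816367-62816616 on the minus strand for EGR2 and chr9:99821635-99821884 on the plus strand for NR4A3.
EGR1: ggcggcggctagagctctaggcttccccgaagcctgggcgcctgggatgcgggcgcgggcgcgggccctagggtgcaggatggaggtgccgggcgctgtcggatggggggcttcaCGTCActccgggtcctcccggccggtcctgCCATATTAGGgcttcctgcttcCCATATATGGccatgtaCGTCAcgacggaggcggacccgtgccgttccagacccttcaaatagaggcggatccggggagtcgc
EGR2: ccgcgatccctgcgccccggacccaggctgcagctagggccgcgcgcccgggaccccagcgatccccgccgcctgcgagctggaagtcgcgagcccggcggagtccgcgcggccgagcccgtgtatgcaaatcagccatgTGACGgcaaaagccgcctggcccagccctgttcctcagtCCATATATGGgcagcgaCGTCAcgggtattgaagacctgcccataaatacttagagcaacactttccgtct
NR4A3: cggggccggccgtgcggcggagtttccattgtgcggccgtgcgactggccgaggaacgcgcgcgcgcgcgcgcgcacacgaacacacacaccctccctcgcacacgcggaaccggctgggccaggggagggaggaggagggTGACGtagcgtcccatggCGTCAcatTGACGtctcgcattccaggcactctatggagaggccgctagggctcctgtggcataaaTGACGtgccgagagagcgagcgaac
In both EGR windows a capital CArG box lies next to a cAMP element core on its downstream side, while the NR4A3 window carries its 4 cores and no CArG box.

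The levels of the members were compared per length, from the deposited FPKM values (fragments per kilobase of gene, scaled to library size). In untreated cells EGR1 was the most abundant member at 163 ± 21.1 FPKM (SD, n = 3), which placed it 75th of 19887 protein-coding genes, and IER2 followed at 86.8 ± 10.1 FPKM, placed 180th. NR4A1 came next at 10.5 ± 1.71 FPKM. EGR3 (5.96 ± 0.494 FPKM) and IER5 (5.58 ± 0.330 FPKM) had overlapping library ranges, as did NR4A2 (4.04 ± 0.708 FPKM) and EGR2 (3.81 ± 1.63 FPKM). Among the lowest 3, IER3 (1.499 ± 0.178 FPKM) was above ARC (0.476 ± 0.248 FPKM) in every library, while NR4A3 (1.06 ± 0.390 FPKM) had a range that overlapped both. The same 3 genes led in Sev-treated cells, with EGR1 at 201 ± 24.7 FPKM, IER2 at 87.9 ± 12.3 FPKM and NR4A1 at 9.20 ± 1.38 FPKM. IER3 came next at 5.86 ± 4.60 FPKM, with a range that overlapped those of its neighbours NR4A1 and IER5.

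**Figure D1:**
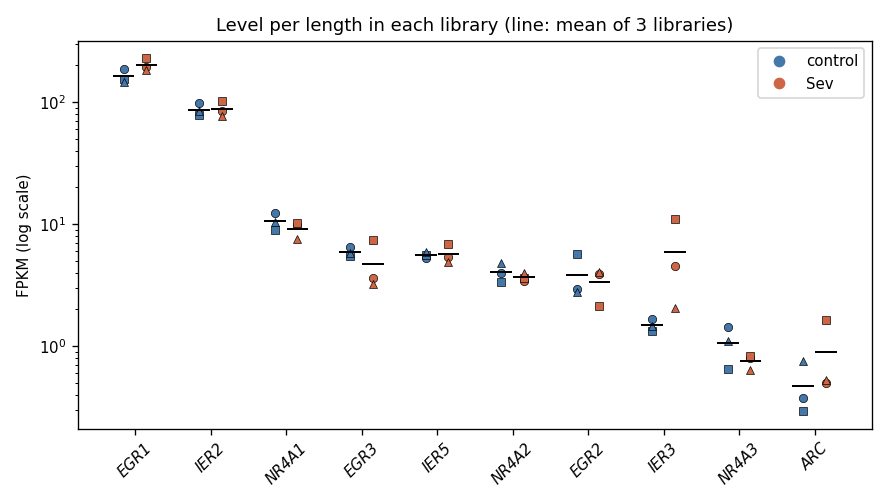
Deposited FPKM of the 10 members on a log axis, ordered by their control mean, in 3 control (blue) and 3 Sev (orange) libraries with circles, squares and triangles for replicates 1, 2 and 3 and a line at each mean. EGR1 and IER2 lie far above the other members in every library, and the Sev values of IER3 run from 2.07 to 10.98 FPKM.

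The comparison of Sev-treated with untreated cells asks which of these genes the exposure changed. IER3 and EGR1 rose, and no member fell. With an adjusted p-value under 0.05 (the quasi-likelihood test of edgeR, Benjamini-Hochberg adjusted over 27514 features), 2 of the 10 members were higher and 0 were lower. Of all tested features 22.1% were higher and 21.5% were lower by this rule, so the members were not called more often than the background. At an unadjusted p-value under 0.05 the members called were again 2, both higher, while 43.7% of all features passed the stricter adjusted limit. By the threshold of the study, which asks for more than 1 log2 unit of change and p under 0.05 before adjustment, 1 member (IER3) was higher and 0 were lower, against 11.4% and 12.0% of all features. In normalized CPM the groups did not overlap for 2 members, the same EGR1 and IER3, against 56.5% of all features. In the deposited FPKM the groups of EGR1 did overlap, with control replicate 1 at 187 and Sev replicate 3 at 182. The median log2 fold change of the members was 0.089, with 6 positive and 4 negative, and their median size without regard to sign was 0.18, against 0.51 over all features and 0.41 over protein-coding genes. In bulk libraries a change in the share of cells that express a gene and a change in the amount per cell cannot be told apart.

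**Figure D2:**
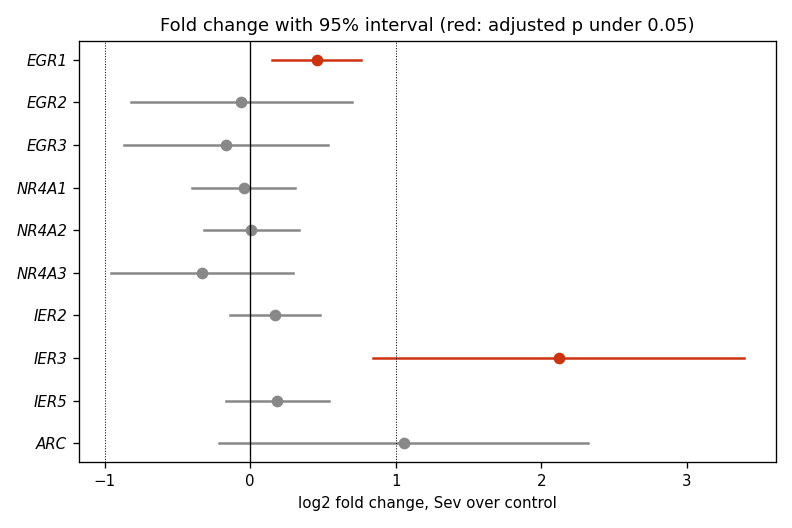
Log2 fold change of each member, Sev over control, with its 95% interval from the quasi-likelihood test; red marks an adjusted p-value under 0.05 and dotted lines mark −1 and 1. The intervals of 7 of the 8 members not called lie wholly between −1 and 1, the exception being ARC, whose interval reaches 2.32.

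Among the EGR genes, EGR1 (ENSG00000120738, chromosome 5, 138465490 to 138469315, GRCh38) is the prototype of the family and relays growth factor signals to genes of growth and matrix. Its normalized level was 675, 577 and 547 CPM in control replicates 1, 2 and 3 and 784, 967 and 718 CPM in Sev replicates 1, 2 and 3. On this scale each Sev library was above each control library, with Sev replicate 2 the highest. By deposited FPKM, control replicate 1 (187) was above Sev replicate 3 (182). The log2 fold change was 0.46 (standard error 0.13, 95% interval 0.15 to 0.76, adjusted p = 0.0252), a 1.37-fold rise on a gene that was already highly expressed. The call was lost with library size alone as the scaling, where the value was 0.31 (adjusted p = 0.0693) and the median of all features moved to −0.15, so that EGR1 lay 0.46 above that median under both scalings. It was also lost when any of 4 single libraries was omitted, namely control replicate 2 (0.42, adjusted p = 0.0744), control replicate 3 (0.39, adjusted p = 0.0941), Sev replicate 1 (0.49, adjusted p = 0.0508) and Sev replicate 2 (0.33, adjusted p = 0.0501). In these fits 32.4% to 39.3% of all features were called, against 43.7% in the main fit. With limma on the FPKM values EGR1 was at 0.31 and not called. The limma adjusted p was 0.0872 on log2(FPKM + 1), 0.0890 on log2(FPKM + 0.1) and 0.155 on log2(FPKM + 1) with no filter. The median of all features in these fits was −0.11, −0.17 and −0.0089, so that EGR1 lay 0.42, 0.47 and 0.31 above it.

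EGR2, a factor of hindbrain patterning and of myelination by Schwann cells, stood at 12.5, 25.2 and 12.3 CPM in control replicates 1, 2 and 3 and at 18.6, 10.6 and 18.7 CPM in the Sev replicates. Replicate 2 was the highest control library and the lowest Sev library, and the groups overlapped. The log2 fold change was −0.060 (95% interval −0.82 to 0.70, adjusted p = 0.899), which turned positive without control replicate 2 (0.36) and without Sev replicate 2 (0.17). EGR3, a factor of muscle spindle and lymphocyte development, was even in the control libraries at 37.7, 33.3 and 34.9 CPM. In the Sev libraries it was 23.9, 50.01 and 20.5 CPM, so that replicates 1 and 3 were below every control and replicate 2 was above every control. Its log2 fold change was −0.17 (95% interval −0.87 to 0.54, adjusted p = 0.686). Without Sev replicate 2, EGR3 was lower in Sev with a log2 fold change of −0.66 (adjusted p = 0.00492). EGR3 shares 3153 bases with ENSG00000253125 on the opposite strand, which had 6, 4 and 11 counts in the control libraries and 16, 71 and 10 in the Sev libraries, also highest in Sev replicate 2. The strand setting of the counting is not given in the sources used here, so reads of this pair cannot be told apart. EGR4, the remaining family member, had 0 to 5 counts in each library and was not tested.

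The 3 NR4A genes did not pass the test, and their libraries overlapped between the groups. NR4A1 (Nur-type receptor with roles in apoptosis, metabolism and immune cells) was 104, 78.3 and 89.1 CPM in control replicates 1, 2 and 3 and 92.8, 100.1 and 70.2 CPM in the Sev replicates. Its log2 fold change was −0.044 (95% interval −0.40 to 0.31, adjusted p = 0.839), an interval that spans 0.759-fold to 1.24-fold. NR4A2, needed for midbrain dopamine neurons, had the tightest Sev libraries of all members, 17.6, 19.5 and 19.8 CPM, against 18.2, 16.0 and 22.4 CPM in control cells. Its log2 fold change was 0.0093 (95% interval −0.32 to 0.34, adjusted p = 0.964). NR4A3, which overlaps with NR4A1 in function in blood cells, was 10.4, 4.92 and 8.24 CPM in control cells and 6.56, 7.05 and 5.10 CPM in Sev-treated cells, with control replicate 2 the lowest library. Its log2 fold change was −0.33 (95% interval −0.96 to 0.29, adjusted p = 0.352), and it was −0.58 (adjusted p = 0.0598) without control replicate 2 and −0.090 (adjusted p = 0.817) without control replicate 1. The transcript NR4A1AS lies on the opposite strand over 1045 bases of NR4A1 and had 67 to 167 counts in a library, against 2780 to 4388 for NR4A1 itself.

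The IER genes share the name of immediate early response and, apart from IER2 and IER5, little sequence. IER3 (ENSG00000137331, chromosome 6, 30743199 to 30744554, GRCh38) regulates apoptosis and the duration of ERK and NF-kB signaling. It was even in the control libraries, with 112, 87 and 116 counts or 2.65, 2.20 and 2.39 CPM, and in the Sev libraries it had 300, 750 and 140 counts or 7.96, 19.96 and 3.53 CPM. All 3 Sev libraries were above the controls but they differed among themselves, replicate 2 being 5.65-fold above replicate 3. The log2 fold change was 2.12 (standard error 0.55, 95% interval 0.84 to 3.39, adjusted p = 0.0164), which is 4.34-fold with an interval of 1.80-fold to 10.5-fold. Without Sev replicate 2 it was 1.25 (adjusted p = 0.0234). The call was lost without control replicate 1 (2.18, adjusted p = 0.0532), control replicate 2 (2.05, adjusted p = 0.0556) or control replicate 3 (2.11, adjusted p = 0.0535). In these fits 32.4% to 36.8% of all features were called, against 43.7% in the main fit. The call of IER3 was lost as well with limma on log2(FPKM + 1), with a value of 1.24 on that scale (adjusted p = 0.0529). IER3-AS1, on the opposite strand, had 0 to 8 counts in a library.

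IER2, a nuclear regulator of transcription and cell motility, was 347, 288 and 307 CPM in control replicates 1, 2 and 3 and 337, 421 and 301 CPM in the Sev replicates. The groups overlapped, with Sev replicate 2 above all other libraries, and the log2 fold change was 0.17 (95% interval −0.14 to 0.48, adjusted p = 0.338). IER5, which recruits a phosphatase to the heat shock factor HSF1, was 25.4, 28.1 and 29.3 CPM in control cells and 29.4, 38.8 and 26.0 CPM in Sev-treated cells, again highest in Sev replicate 2. Its log2 fold change was 0.19 (95% interval −0.17 to 0.54, adjusted p = 0.358). Without Sev replicate 2 the log2 fold change was 0.028 for IER2 and 0.0087 for IER5, and without Sev replicate 3 it was 0.27 for IER2 and 0.31 for IER5. Of the 2 related genes outside the members, IER5L fell from 43.9 ± 1.08 to 28.7 ± 9.22 CPM (SD, n = 3), a log2 fold change of −0.61 (adjusted p = 0.0458). The value stayed negative in all 6 fits on 5 libraries, from −0.87 without Sev replicate 2 (adjusted p = 0.00622) to −0.40 without Sev replicate 3 (adjusted p = 0.0590), but the adjusted p was under 0.05 only in the first of these, and with no filter on low counts it was 0.0685 at a value of −0.63. IER3IP1, named for its binding to the IER3 protein, was 10.2 ± 4.71 CPM in control and 19.5 ± 2.79 CPM in Sev libraries, with a log2 fold change of 0.93 (adjusted p = 0.0526). It was called higher with the replicate number as a block (1.04, adjusted p = 0.0180), with the DESeq2 Wald test (0.94, adjusted p = 0.0101) and with DESeq2's size factors (0.95, adjusted p = 0.0479). It was also called higher without control replicate 2 (0.60, adjusted p = 0.0375) or control replicate 3 (1.25, adjusted p = 0.0292). ENSG00000267228 lies on the same strand over 23512 bases of IER3IP1 and had 0 to 3 counts in a library. Reads of this pair cannot be told apart where the 2 overlap. On the strand opposite to IER5L, IER5L-AS1 had 0 to 12 counts and AL158151.3 had 0 to 1 count in a library.

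ARC had the lowest mean level of the members in control cells, with a range that overlapped that of NR4A3 per length. It had 56, 43 and 131 counts or 1.32, 1.09 and 2.70 CPM in control replicates 1, 2 and 3. The Sev replicates were at 1.99, 6.68 and 2.02 CPM. Sev replicate 2 was 3.36-fold above Sev replicate 1 and 3.31-fold above Sev replicate 3, while the other 2 Sev libraries lay within the control range. The log2 fold change was 1.05 (95% interval −0.21 to 2.32, adjusted p = 0.155) and 0.23 (adjusted p = 0.672) without Sev replicate 2. It was 1.55 (adjusted p = 0.0859) without control replicate 3, and with limma 0.32 (adjusted p = 0.306) on log2(FPKM + 1) and 0.68 (adjusted p = 0.295) on log2(FPKM + 0.1).

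**Figure D3:**
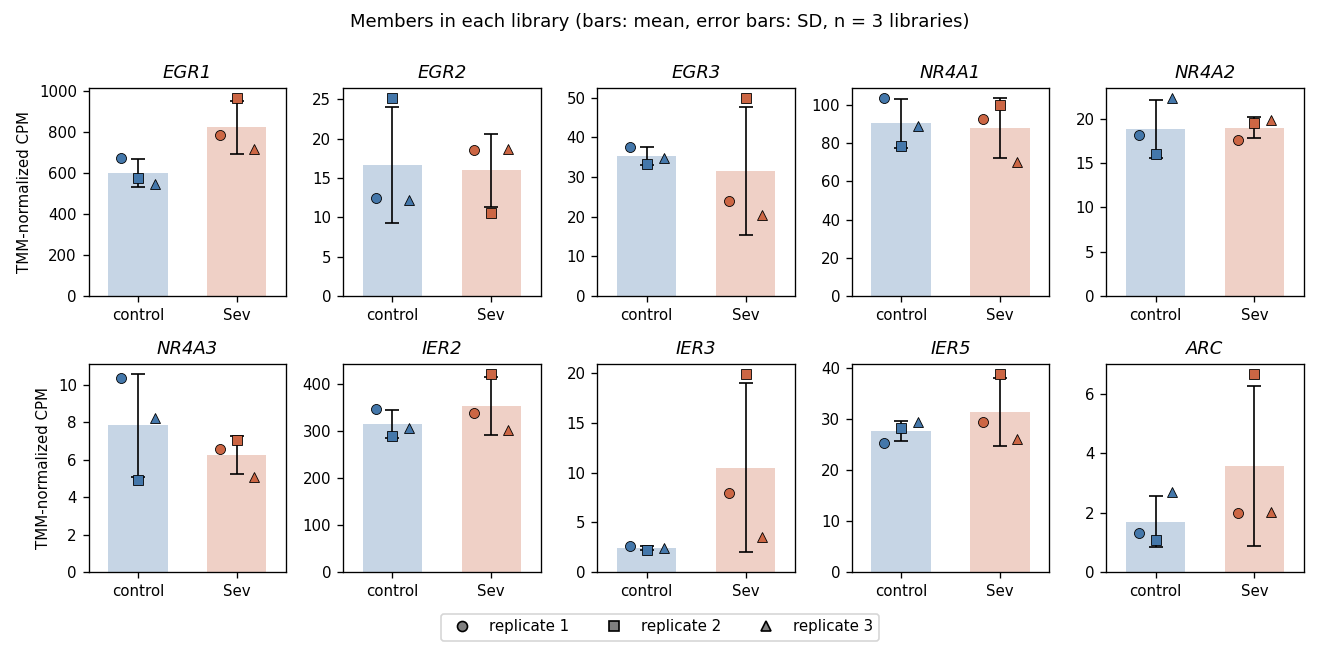
TMM-normalized CPM of each member in 3 control (blue) and 3 Sev (orange) libraries, with bars at the mean, error bars of 1 SD and a separate axis from 0 for each gene. Sev replicate 2, the orange square, is the highest Sev library in 8 of the 10 panels, and EGR1 and IER3 are the 2 panels in which the groups do not overlap.

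Libraries of the same group differed in the same direction for many members. Sev replicate 2 was the highest Sev library for 8 of the 10 members, against 37.5% of all tested features, and Sev replicate 3 was the lowest for 7, against 35.4%. The 2 exceptions to the first count were EGR2, lowest in Sev replicate 2, and NR4A2, for which Sev replicate 3 was highest. Among 60 other immediate early genes Sev replicate 2 was also the highest Sev library for 45, and Sev replicate 3 was the lowest for 46. On the log2 scale the SD of the Sev libraries was 1.25 for IER3, 1.002 for ARC and 0.69 for EGR3, against a median of 0.17 and a 90th percentile of 0.48 over 19446 features with a mean of at least 1 CPM. The SD of the control libraries was 0.14 for IER3 and 0.089 for EGR3, and it was 0.69 for ARC, 0.59 for EGR2 and 0.55 for NR4A3, against a median of 0.15 and a 90th percentile of 0.41. EGR2, NR4A2 and NR4A3 had a larger SD in control than in Sev libraries. In the control group replicate 1 was the highest library for 6 members, against 37.4% of all features, and replicate 2 the lowest for 7, against 37.0%. Sev replicates 2 and 3 are also the 2 libraries at the ends of principal component 2, and the part of that axis in these values was not tested.

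**Figure D4:**
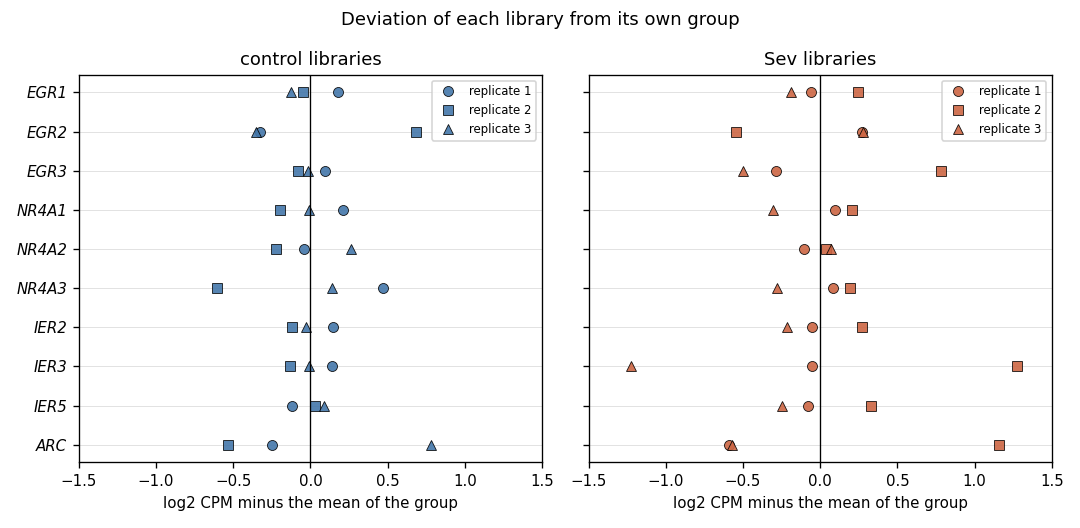
Log2 CPM of each library minus the mean of its own group, for control libraries (left) and Sev libraries (right), with circles, squares and triangles for replicates 1, 2 and 3. In the Sev panel the squares lie to the right for most members, as far as 1.27 for IER3, and the triangle of IER3 lies at −1.22, while the control points run from −0.61 for NR4A3 to 0.78 for ARC.

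The wider immediate early program was described by lists of related genes. Of 60 other immediate early genes, all of which were tested, 35 rose and 8 fell with an adjusted p-value under 0.05, and their median log2 fold change was 0.66. The share called was 71.7%, against 43.7% of all features. Among those that rose, TRIB1, a pseudokinase that directs protein degradation, went from 32.8 ± 0.803 to 118 ± 2.26 CPM (SD, n = 3). SGK1, a kinase of ion transport and survival, went from 69.6 ± 9.04 to 438 ± 58.9 CPM, and FOSL1, an AP-1 subunit, from 16.3 ± 2.77 to 86.4 ± 9.46 CPM. Among those that fell, FOS, the AP-1 subunit most often read beside EGR1, went from 564 ± 38.1 to 399.6 ± 49.2 CPM. ZFP36L1, an mRNA decay factor, went from 201 ± 11.6 to 123 ± 16.9 CPM, and BTG2, an antiproliferative gene, from 30.9 ± 4.77 to 7.97 ± 3.94 CPM. The members and this list were set side by side as a description, and the difference between them was not tested.

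Of 39 transcription factors, coactivators and kinases that act upstream of the members, 12 rose and 5 fell, and 0 passed the threshold of the study in either direction. The share called, 43.6%, was that of all tested features, 43.7%. ELK3, an ETS-family partner of serum response factor, rose from 99.9 ± 6.81 to 156 ± 5.25 CPM (SD, n = 3), and CRTC3, a CREB coactivator, from 49.9 ± 1.38 to 85.0 ± 5.65 CPM. CREB1 fell from 31.6 ± 3.96 to 16.8 ± 0.518 CPM, and HDAC4, a repressor of MEF2 factors, from 60.7 ± 2.61 to 36.1 ± 2.80 CPM. SRF itself had a log2 fold change of 0.36 (adjusted p = 0.00908). With library size alone as the scaling, the genes of this list that fell numbered 11.

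Among 20 tested co-regulators and partners, 5 rose and 2 fell, a share of 35% called against 43.7% of all features. PPP2CA, the phosphatase catalytic subunit that IER5 recruits, rose from 187 ± 15.2 to 289 ± 6.87 CPM (SD, n = 3), its target HSF1 from 31.7 ± 0.936 to 46.6 ± 2.23 CPM and the corepressor TRIM28 from 278 ± 18.9 to 392 ± 8.94 CPM. The 2 that fell were the retinoid X receptors that pair with NR4A proteins, RXRB, from 42.2 ± 4.55 to 21.7 ± 3.98 CPM, and RXRA, from 46.6 ± 2.49 to 31.7 ± 4.41 CPM. NAB2, a corepressor of EGR proteins that EGR1 itself induces, had a log2 fold change of 0.61 (adjusted p = 0.0735), and its relative NAB1 0.30 (adjusted p = 0.0328); NAB2 was chosen for mention after its value was seen.

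Of 28 tested genes among 35 known as targets of EGR or NR4A factors in other cells, 11 rose and 3 fell, with a median log2 fold change of 0.31, or 0.27 over the 27 genes with more than 3 counts in a library of each group. The share called was 50%, near the 43.7% of all features. CD44, a hyaluronan receptor, rose from 385 ± 19.1 to 755 ± 39.7 CPM (SD, n = 3), CCND1, cyclin D1, from 396 ± 47.2 to 781 ± 38.6 CPM and BDNF, a neurotrophin, from 17.1 ± 1.43 to 56.9 ± 10.6 CPM. VEGFA fell from 127 ± 9.51 to 64.4 ± 18.2 CPM, FN1, fibronectin, from 367 ± 30.2 to 286 ± 40.5 CPM and PDK4, a kinase of glucose oxidation, from 1.86 ± 0.454 to 0.720 ± 0.371 CPM. These genes answer to many other factors, and whether EGR1 or NR4A proteins acted on them was not tested.

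The neuronal activity-regulated genes, the usual company of ARC, gave 8 that rose and 3 that fell of 14 tested, with a median log2 fold change of 0.81, or 0.79 without NPAS4, and 78.6% were called against 43.7% of all features. SIK1, a CREB-induced kinase, rose from 14.9 ± 1.001 to 46.0 ± 17.0 CPM (SD, n = 3). NPAS4, a calcium-induced factor of neurons, was called higher on few reads, with 0, 0 and 2 counts in control replicates 1, 2 and 3 and 18, 13 and 15 counts in the Sev replicates. NRN1, a neurite growth factor, fell from 38.7 ± 8.40 to 17.6 ± 3.01 CPM, the AP-1 subunit FOSB from 379 ± 59.0 to 215 ± 88.8 CPM and the synaptic scaffold gene HOMER1 from 25.4 ± 1.06 to 20.4 ± 1.81 CPM.

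**Figure D5:**
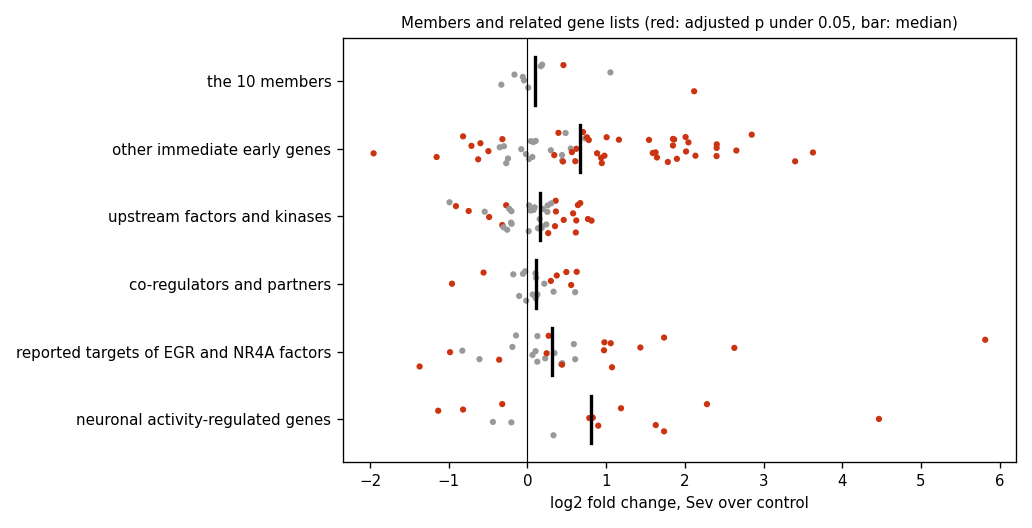
Log2 fold change, Sev over control, of each tested gene of the 10 members and 5 related lists; red marks an adjusted p-value under 0.05, grey the rest, and black bars the medians. The members sit around a median of 0.089 with 2 red points, while the other immediate early genes spread from −1.96 to 3.63 around a median of 0.66.

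Genes whose profile over the 6 libraries was most like that of the first member of each family were found among 16052 genes with a symbol and a mean of at least 1 CPM, by Pearson's r of log2 CPM. All values come from the same 6 libraries and share their scaling, and they are given as a description. For EGR1 these were CAHM (r = 0.996), QARS1 (r = 0.995) and JMJD8 (r = 0.988). COG5, HMGB1P51 and SNX14 were most like NR4A1 (r = 0.978, 0.977 and 0.977), and SCPEP1, ZER1 and MYLIP were most like IER2 (r = 0.995, 0.993 and 0.988). Between members the highest r was 0.94 for EGR1 with IER3, followed by 0.87 for IER5 with ARC, 0.86 for IER2 with IER3, 0.85 for EGR1 with IER2, 0.84 for IER3 with IER5 and 0.83 for NR4A1 with NR4A3. EGR2 ran against several members, with r of −0.78 to NR4A3 and −0.73 to IER2.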

How the data were processed

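RNA sequencing of U251 cells gave 6 libraries, grouped by their titles as control and Sev, 3 each. The authors deposited raw counts per gene and FPKM values for the same features. For 15843 features with over 50 counts in every library, the FPKM were close to the counts divided by 1 fixed length and the library total (median difference 0.947%, largest 17.9%). The submitters' processing notes name bcl2fastq 2.19, featureCounts and hg18, with no role; the aligner, the annotation and the strand setting are not given in the sources used here. Symbols were joined through Ensembl identifiers. Positions are from GENCODE 29 (GRCh38), not from the files.

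Counts were filtered with filterByExpr, normalized by TMM and tested in edgeR 4.0.16 (R 4.3.3) by the quasi-likelihood test, fitted on all features with no covariate, with Benjamini-Hochberg adjustment and a limit of 0.05. Standard errors were the log2 fold change over the square root of F. An exact permutation test of 3 against 3 cannot go under 0.1. The quasi-likelihood fit was tested on simulated data. The members and lists were chosen with earlier results of these data known. Named genes were all members, their relatives, and up to 3 genes with the smallest p-values per direction in each list, with SRF, NAB1 and NAB2 added after their values were seen; 2 genes that the rule names are not reported here. The alternatives were DESeq2 1.42.0 (size factors, Wald test), library size only, 2 other filters, a block for replicate number, omission of each library in turn, and limma 3.58.1 on log2(FPKM + 1) or log2(FPKM + 0.1). Replicates of a group differed beyond sampling noise for 49.0% to 66.5% of 15608 genes, so none was a copy of another.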

Additional observations from a re-analysis of the deposited data

How the results depend on the processing

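Counting error was largest for ARC, IER3 and NR4A3, which had 43 to 439 counts in the control libraries, and a group of 3 libraries limits every estimate of spread. With every library kept, the number of members called higher was 2 under DESeq2's size factors, the DESeq2 Wald test, both other filters on counts and the replicate block. It was 1 with library size only and with limma on log2(FPKM + 0.1), the call of EGR1 being lost in both, and 0 with limma on log2(FPKM + 1), with or without its filter. Past the threshold of the study, 2 members were higher under the DESeq2 Wald test, the second being ARC. With each library omitted in turn, the members called higher numbered 0 to 2, those called lower 0 to 1 (EGR3, without Sev replicate 2), and those past the threshold of the study 1 to 2 higher. Of all features, in either direction, 43.7% were called in the main fit and 32.4% to 39.3% with 1 library omitted. The share was 25.1% with the DESeq2 Wald test, 23.5% with no filter on counts and 24.1% on unfiltered FPKM. It was 37.3% with the replicate block and 43.6% to 46.4% in the other settings.

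The replicate numbers did not pair the libraries: the deviations of same-numbered libraries from their group means correlated at r = −0.0072, 0.0035 and 0.027 over features, and not every library correlated best with its own number. With the replicate block the features called numbered 10249 in place of 12014, 10009 of them shared. The upstream factors that fell numbered 3 with the replicate block or with no filter, 11 with library size only or on either filtered FPKM scale, and 8 on unfiltered FPKM, where 7 rose. The co-regulators that rose numbered 3 with library size only and on the 3 FPKM settings. The target genes that rose numbered 4 on both filtered FPKM scales and 6 on the unfiltered one, and the neuronal activity-regulated genes that rose numbered 5 on all 3. With no filter, 5 other immediate early genes and 1 neuronal activity-regulated gene fell. With 1 library omitted, genes that fell ranged from 5 to 7 for the other immediate early genes, 2 to 5 for the upstream factors, 1 to 3 for the targets and 1 to 2 for the neuronal activity-regulated genes, and the targets that rose from 7 to 10. The causes of these shifts were not tested.

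Members near 0 turned sign. NR4A2 was −0.13 with library size only, −0.0038 with no filter, −0.10 on log2(FPKM + 1) with or without the filter and −0.12 on log2(FPKM + 0.1), and ran from −0.10 to 0.15 with 1 library omitted. Over those fits EGR2 ran from −0.25 to 0.36, EGR3 from −0.66 to 0.067 and NR4A1 from −0.15 to 0.096. With no filter the median log2 fold change of all features was 0.061 and with library size only it was −0.15.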
